A study of Mus musculus with 9 samples.

Results

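Solute carriers, the membrane proteins that move sugars, amino acids, vitamins, metals and metabolites across cell and organelle membranes, were examined in the livers of C57BL/6J mice after short dietary restriction. Members were the listed genes whose symbol began with Slc and a digit or with Slco and whose mean over the libraries was at least 1 TPM (a level per transcript length, scaled to the library total). Of 84 such symbols among the 5608 genes listed, 69 passed this minimum and 15 did not. The 69 members comprised 11 mitochondrial carriers of the Slc25 family, 25 carriers known mainly from the plasma membrane and 33 carriers of other or several membranes. Liver RNA came from 3 ad libitum fed mice on the standard diet (FED), 3 intermittently fasted mice whose food was withheld for 24 h on 2 occasions (IF) and 3 mice given a calorie-poor fasting-mimicking diet for 3 days (FMD). All mice were wild type and were killed on the day after the last restricted day, so the IF mice had refed between their 2 fasts whereas the FMD mice had not. Age was not given in the sources used here.

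Solute carriers do not hydrolyse ATP; they let a solute run down its gradient or couple it to an ion or another solute. In the liver they take up carnitine for mitochondrial fat burning, release glucose and ketone bodies to the blood, carry amino acids towards gluconeogenesis and the urea cycle, and keep zinc and iron in balance. Carriers of the Slc25 family sit mostly in the inner mitochondrial membrane and link the matrix to the cytosol.

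Over the 4665 genes tested, the median log2 fold change against FED was 0.24 in IF and 0.48 in FMD, and FMD exceeded IF by 0.24. Values are therefore also given after scaling, for which every library was divided by its median ratio to a geometric mean library. With the deposited values most genes tested were higher in IF and in FMD than in FED. The authors' own analysis gave slightly more genes lower than higher against FED in each regimen. The reason for this difference was not tested. FMD replicate 1 stood apart, with a mean Euclidean distance over log2(TPM + 1) of 52.7 to the other libraries against 28.8 to 37.9 for the rest. Replicate 1 was the highest library of its group for 37 of the 69 members in FMD, 49 in IF and 36 in FED. Of the hepatocyte markers only Ass1 was listed, at 2335 to 5153 TPM in every liver. The macrophage marker Cd68 was 64.0 TPM in FMD replicate 1 and 3.14 to 12.2 TPM elsewhere. The summed level of the 4 stellate cell markers listed (Dcn, Col1a1, Pdgfrb and Hgf) was 67.5 to 95.5 TPM in FED, 125 to 162 in IF and 109 to 221 TPM in FMD livers. Dcn alone gave 64.1 to 90.1, 119.8 to 156 and 106 to 213 TPM of this. Hgf was 0.90 to 1.72 TPM in FED, 1.93 to 2.22 in IF and 1.25 to 3.95 TPM in FMD livers, so IF lay above FED for Hgf too. The ranges of Col1a1 and Pdgfrb overlapped between all groups at 0.27 to 2.40 TPM. The pancreas marker Cela1, the only 1 of 6 listed, was 23.8 to 30.03 TPM in FED, 5.78 to 7.57 in IF and 3.23 to 4.17 TPM in FMD livers, and the bile duct marker Krt19 was 0.76 to 4.07 TPM throughout. No endothelial, erythroid, lymphocyte or adipocyte marker was in the table used here. The part of these differences in the results was not tested, and in bulk liver a change in the number of cells of a type and a change in RNA per cell cannot be told apart.

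In IF vs FED livers, 13 of the 69 solute carrier genes (18.8%) were differentially expressed, against 11.9% of all genes tested. To be called, a gene needed a Benjamini-Hochberg adjusted limma p under 0.05 and a change of TPM + 1 of over 1.5-fold either way. Of these, 12 carriers were higher, led by the fatty acid transporter Slc27a1, the carnitine transporter Slc22a5 and the mitochondrial orphan carrier Slc25a34, and only the zinc importer Slc39a4 was lower. Among all genes tested, 10.3% were called higher and 1.59% lower. The median log2 fold change of the members was 0.22, close to the 0.24 of all genes. After scaling, 11 members were called against 7.14% of all genes, 7 of them higher (3.71% of all genes) and 4 lower (3.43%), and 8 of the 11 had the same call with the deposited values. Leaving out IF replicate 1 reduced the deposited count from 13 to 8.

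In FMD vs FED livers, 33 members (47.8%) were called, all of them higher, against 37.1% of all genes in either direction, 35.5% higher and 1.59% lower. The largest rises were again those of Slc22a5, Slc27a1 and Slc25a34, followed by the folate carrier Slc19a1 and the pyrimidine nucleotide carrier Slc25a33. Members had a median log2 fold change of 0.56, against 0.48 over all genes. With scaled values 15 members were called against 11.2% of all genes, 11 of them higher (5.47% of all genes) and 4 lower (5.72%), and 11 of these kept the call of the deposited values. Without FMD replicate 1, 25 members were called, of which 24 were higher and 1, the neutral amino acid exchanger Slc1a4, was lower.

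IF and FMD were each compared with the same 3 FED livers. In both comparisons 10 members were called, all of them higher, while 23 were called in FMD but not in IF, 3 in IF but not in FMD and 33 in neither. Of all genes tested, 9.54% were called in both, 27.6% in FMD but not in IF, 2.32% in IF but not in FMD and 60.6% in neither. With scaled values 8 members were called in both, 6 higher and 2 lower, against 4.59% of all genes.

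When FMD livers were set directly against IF livers, 9 members (13%) were called, all higher in FMD, against 5.14% of all genes in either direction, 4.67% higher and 0.472% lower. They were led by Slc39a4, Slc25a33 and the mitochondrial NAD carrier Slc25a51. These 3 were also the members called with scaled values, against 2.17% of all genes (1.07% higher and 1.09% lower). The median over members was 0.30, against 0.24 over all genes.

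**Figure D1:**
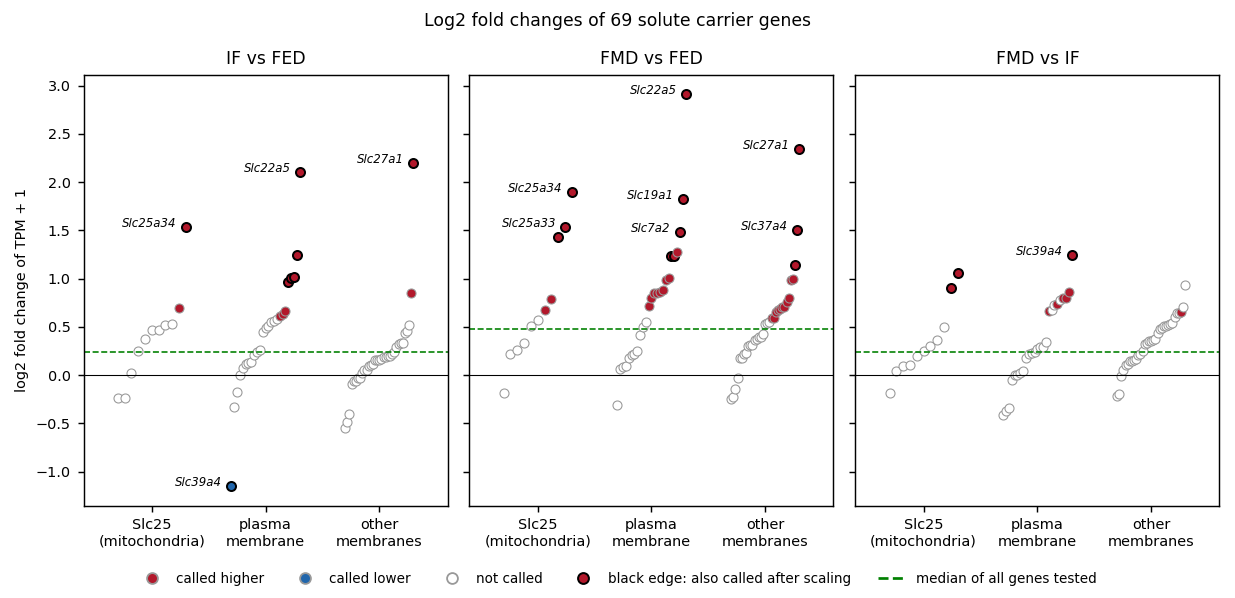
Log2 fold changes of TPM + 1 (y axis) for the 69 solute carrier genes in the 3 comparisons of livers, 3 mice per group, with 1 point per gene sorted by value within Slc25, plasma membrane and other carriers (x axis). Filled points were called (red higher, blue lower), black edges mark genes also called after scaling, and the dashed line is the median of all genes tested, at 0.24, 0.48 and 0.24.

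The calls fell on all 3 sets of carriers. Of the 25 plasma membrane carriers, 9 (36%) were called in IF (8 higher, 1 lower) and 14 (56%) in FMD (all higher), against 11.9% and 37.1% of all genes, with median log2 fold changes of 0.49 and 0.81. The 11 Slc25 carriers had 2 calls in IF (18.2%) and 5 in FMD (45.5%), all higher, with medians of 0.47 and 0.57. The other 33 carriers had 2 calls in IF (6.06%) and 14 in FMD (42.4%), all higher, with medians of 0.16 and 0.54. Differences between the sets were not tested. After scaling, the calls in IF were 5 higher and 1 lower for the plasma membrane, 1 higher for Slc25 and 1 higher and 3 lower for the other carriers. In FMD they were 5 higher, then 3 higher and 1 lower, then 3 higher and 3 lower. Of all genes tested, 3.71% were called higher and 3.43% lower in IF after scaling, and 5.47% and 5.72% in FMD.

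Summed over all members, carrier transcripts came to 1695 ± 146 TPM in FED, 2204 ± 155 TPM in IF and 2818 ± 369 TPM in FMD livers (SD, n = 3). The 11 Slc25 genes summed to 732 ± 68.4, 897 ± 56.4 and 1105 ± 200 TPM in the same order. The 25 plasma membrane carriers listed summed to less, at 507 ± 43.9, 762 ± 50.4 and 947 ± 76.1 TPM (SD, n = 3). Of 73 known liver carriers looked for, 24 were among the members. Sums and ranks of carriers therefore hold for the listed genes only. The listed genes together filled 27.9% of the whole TPM scale in FED, 34.04% in IF and 38.1% in FMD livers on average. As a share of this listed TPM, the members held 0.59% to 0.63% in FED, 0.623% to 0.686% in IF and 0.684% to 0.83% in FMD libraries, so that the IF range lay below FMD replicate 1 (0.709%) and overlapped FMD replicate 4.

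**Figure D2:**
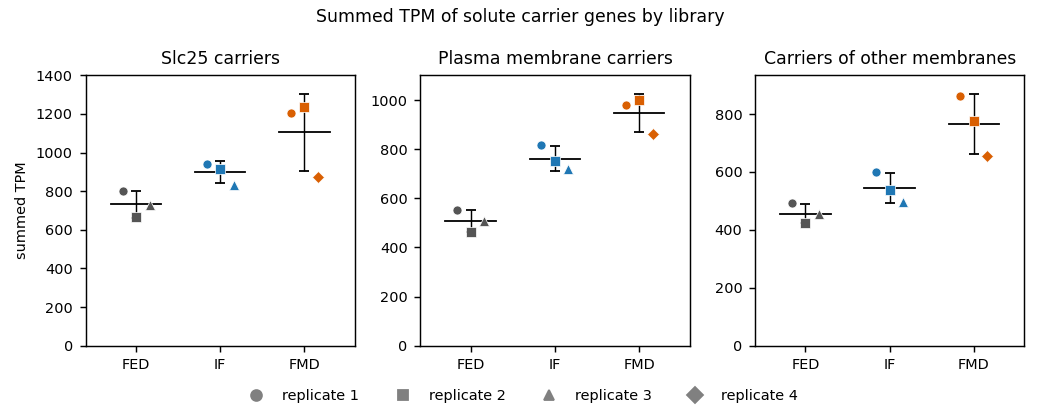
Summed TPM (y axis, from 0) of the 11 Slc25, 25 plasma membrane and 33 other carriers in each library of the FED, IF and FMD groups (x axis). Points are libraries, with a symbol per replicate number, and bars are the mean ± SD of 3 mice. FMD replicate 4 is the lowest FMD library in all 3 panels.

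Carnitine and fatty acid entry showed the largest rises of the family. Slc22a5 (NCBI gene 20520), which encodes OCTN2, the sodium-coupled carnitine transporter of the plasma membrane, measured 5.93, 8.28 and 6.48 TPM in FED, 33.9, 26.8 and 39.1 TPM in IF and 56.1, 65.7 and 53.0 TPM in FMD livers. Each IF liver lay above every FED liver, and each FMD liver above every IF liver. Its log2 fold change was 2.11 ± 0.16 (SE) in IF and 2.91 ± 0.16 in FMD (adjusted p = 6.4e-05 and 2.9e-06). Scaled values gave 1.86 and 2.39, both called. The step from IF to FMD was 0.80 (adjusted p = 0.027), or 0.53 and not called after scaling. The related organic ion carrier Slc22a23 stayed at 12.7 to 22.0 TPM in all livers and was not called in any comparison.

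The sequence around the start of Slc22a5 is shown because this gene had the largest rise in FMD. It was taken from RefSeq on build GRCm38.p6, chr11:53891654-53891953, minus strand, and runs from 250 bases before to 50 bases after the start. None of the 8 motifs searched on both strands was in this window.
Slc22a5 promoter: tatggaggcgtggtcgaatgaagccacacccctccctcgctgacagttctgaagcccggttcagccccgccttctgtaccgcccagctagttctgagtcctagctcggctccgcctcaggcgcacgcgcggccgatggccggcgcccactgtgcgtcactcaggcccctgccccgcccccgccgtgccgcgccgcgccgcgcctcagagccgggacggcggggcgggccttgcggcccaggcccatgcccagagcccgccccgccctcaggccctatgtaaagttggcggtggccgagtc

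Slc27a1 encodes the fatty acid transport protein FATP1, which promotes fatty acid uptake and forms acyl-CoA. Its level was 1.87, 2.06 and 2.18 TPM in FED, 13.7, 12.4 and 12.7 TPM in IF and 9.65, 32.6 and 9.14 TPM in FMD livers. All restricted livers were above all FED livers, while FMD replicate 2 alone was far above the IF livers and the other FMD livers were below them. The log2 fold changes were 2.20 ± 0.36 (SE) in IF and 2.34 ± 0.36 in FMD (adjusted p = 0.0025 and 0.00069), and 2.0 and 1.89 with scaled values, again called. FMD and IF differed by 0.14 (adjusted p = 0.78). Leaving out FMD replicate 2 moved this last difference to -0.42 (adjusted p = 0.0511). The only other Slc27 gene listed, Slc27a3, was under the minimum. It was 0.24 to 0.64 TPM in FED, 0.11 to 0.36 in IF and 0.44 to 0.85 TPM in FMD livers.

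Among the mitochondrial carriers, Slc25a34, whose substrate is not settled, rose in both restricted groups. It measured 1.79, 2.61 and 1.60 TPM in FED, 6.94, 7.99 and 7.90 TPM in IF and 10.02, 15.04 and 6.67 TPM in FMD livers. The restricted livers did not overlap with the FED livers, whereas IF and FMD overlapped. Log2 fold changes were 1.53 ± 0.23 (SE) in IF and 1.90 ± 0.23 in FMD (adjusted p = 0.0017 and 0.00023), with scaled values of 1.34 and 1.46 that were also called.

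Slc25a33 and Slc25a51 rose in FMD well beyond IF. Slc25a33, which carries pyrimidine nucleotides into mitochondria, measured 15.7, 15.9 and 15.5 TPM in FED, 21.3, 21.5 and 23.7 TPM in IF and 44.6, 55.4 and 43.2 TPM in FMD livers. The 3 groups were fully separate. Its log2 fold change was 0.47 in IF (adjusted p = 0.017, under the fold limit), 1.54 ± 0.12 (SE) in FMD vs FED (adjusted p = 1.7e-05) and 1.06 ± 0.12 in FMD vs IF (adjusted p = 0.0019). Both FMD comparisons stayed called after scaling, at 1.0 and 0.79.

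Slc25a51, which brings NAD into the matrix, had 15.7, 17.3 and 17.8 TPM in FED, 23.9, 25.6 and 24.4 TPM in IF and 47.0, 58.2 and 38.1 TPM in FMD livers. Here too no group overlapped with another. The log2 fold change was 0.52 in IF (adjusted p = 0.026, under the fold limit), 1.43 ± 0.15 (SE) in FMD vs FED (adjusted p = 7.7e-05) and 0.91 ± 0.15 in FMD vs IF (adjusted p = 0.013). Scaled values were 0.89 and 0.64 for the FMD comparisons and remained called.

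The most abundant of the listed mitochondrial carriers changed less. Slc25a3, the phosphate carrier that feeds ATP synthesis, was the highest Slc25 gene listed. It measured 296, 251 and 271 TPM in FED, 362, 373 and 326 TPM in IF and 522, 492 and 322 TPM in FMD livers. Only FMD vs FED was called (log2 fold change 0.68, adjusted p = 0.0071), and the value was 0.55 without FMD replicate 1 and 0.12 after scaling, neither of them called. Slc25a15, the ornithine-citrulline exchanger of the urea cycle, ranged from 112 to 145 TPM in FED, 151 to 206 in IF and 132 to 307 TPM in FMD livers, so FMD overlapped with FED. Its log2 fold change in FMD of 0.79 (adjusted p = 0.024) lost its call without FED replicate 2, FED replicate 3, FMD replicate 1 or FMD replicate 2 (adjusted p up to 0.0885) and after scaling (0.23).

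Slc25a1, which exports citrate for fatty acid synthesis, had lower means in both restricted groups than in FED livers. It measured 205, 157 and 183 TPM in FED, 161, 143 and 157 TPM in IF and 157, 135 and 187 TPM in FMD livers, and the groups overlapped. The deposited log2 fold changes of -0.23 in IF and -0.19 in FMD (adjusted p = 0.25 and 0.26) were not called. Relative to the other genes it was lower: the scaled values were -0.51 in IF, not called, and -0.74 in FMD, called. Slc25a16, a carrier linked to coenzyme A entry, rose from 28.8 to 30.1 TPM in FED to 46.1 to 51.7 TPM in IF (log2 fold change 0.69, adjusted p = 0.0018). In FMD it was 38.5 to 44.1 TPM (log2 fold change 0.51, adjusted p = 0.0029), under the fold limit, and neither comparison was called after scaling (0.42 and -0.03).

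The other 4 Slc25 members were not called in any comparison: the oxoglutarate-malate carrier Slc25a11, the branched-chain amino acid carrier Slc25a44, the iron carrier mitoferrin 1 (Slc25a37) and the ADP-ATP exchanger Slc25a4. Their log2 fold changes ran from -0.24 to 0.47 in IF and from 0.22 to 0.57 in FMD. Outside the Slc names, the pyruvate carrier subunit Mpc2 was at 261 to 285 TPM in FED, 436 to 454 in IF and 502 to 624 TPM in FMD livers, without overlap. It rose by 0.69 in IF and 0.99 in FMD (adjusted p = 0.0026 and 0.00017), and was not called after scaling (0.41 and 0.43).

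The promoter of Slc25a33 is shown as that of the mitochondrial carrier with the clearest difference between FMD and IF. It lies at chr4:149774218-149774517 of GRCm38.p6, minus strand, and covers the same 300 bases around the start. An E-box (CACGTG, a motif of helix-loop-helix factors such as USF, identical on both strands) begins at position -8 from the start and is in capitals. The window also holds the antioxidant response element letters TGACNNNGC on the minus strand at position -32.
Slc25a33 promoter: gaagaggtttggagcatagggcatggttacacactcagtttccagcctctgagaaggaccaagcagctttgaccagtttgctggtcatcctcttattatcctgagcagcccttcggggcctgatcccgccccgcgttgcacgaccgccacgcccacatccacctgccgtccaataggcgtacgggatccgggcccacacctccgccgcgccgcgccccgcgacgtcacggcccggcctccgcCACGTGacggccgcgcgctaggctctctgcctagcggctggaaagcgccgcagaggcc

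**Figure D3:**
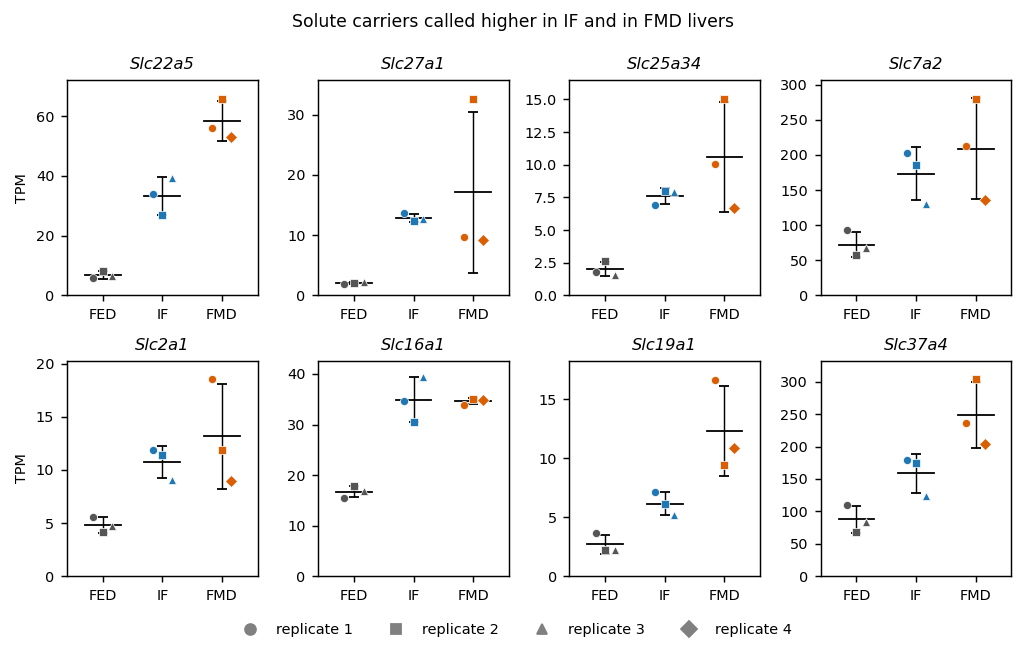
TPM (y axes, from 0) of 8 solute carriers called higher in both IF and FMD in each FED, IF and FMD liver (x axes). Points are libraries, with a symbol per replicate number, and bars are the mean ± SD of 3 mice. All IF and FMD points lie above all FED points in each of these 8 panels, which were chosen by their calls. Of all genes tested, 53.8% in IF and 68% in FMD lay above FED without overlap. FMD replicate 2 stands apart for Slc27a1, at 32.6 TPM.

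Carriers of sugars centred on Slc37a4, which brings glucose-6-phosphate into the endoplasmic reticulum, where it is hydrolysed to the glucose that the liver releases. It measured 111, 68.4 and 84.1 TPM in FED, 179, 174 and 124 TPM in IF and 237, 305 and 205 TPM in FMD livers. The 3 groups did not overlap. Its log2 fold change was 0.86 ± 0.21 (SE) in IF and 1.50 ± 0.21 in FMD (adjusted p = 0.016 and 0.00044). FMD was called after scaling (0.95), whereas IF was not (0.58). The IF call was also lost without FED replicate 2, FED replicate 3, IF replicate 1 or IF replicate 2 (adjusted p up to 0.0721). FMD exceeded IF by 0.65, which did not pass the test (adjusted p = 0.077).

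Of the 55 members with a RefSeq promoter window, Slc37a4 was the only one with a match to the peroxisome proliferator response element, searched on both strands as 2 copies of AGGTCA with 1 base between them and up to 2 mismatches. The same search matched 3.04% of the 3816 tested genes that had windows. The window is chr9:44396696-44396995 of GRCm38.p6, plus strand, 1 of 3 for this gene, and the match, in capitals, has 2 mismatches and begins at position -134 from the start. A metal response element (TGCGCNC) and its A form (TGCACNC) were also in it.
Slc37a4 promoter: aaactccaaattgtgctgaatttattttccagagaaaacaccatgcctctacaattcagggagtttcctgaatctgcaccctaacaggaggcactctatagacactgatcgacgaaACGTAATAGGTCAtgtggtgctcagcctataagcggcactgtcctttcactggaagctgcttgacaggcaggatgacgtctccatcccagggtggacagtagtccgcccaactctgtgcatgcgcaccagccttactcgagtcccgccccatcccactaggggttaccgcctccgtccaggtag

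Slc2a1 encodes GLUT1, a glucose carrier of most cell types that is low in hepatocytes. It was at 5.55, 4.13 and 4.77 TPM in FED, 11.9, 11.4 and 9.01 TPM in IF and 18.6, 11.9 and 8.98 TPM in FMD livers. Both restricted groups lay above FED and overlapped with each other. The log2 fold changes were 1.01 ± 0.22 (SE) in IF and 1.23 ± 0.22 in FMD (adjusted p = 0.0095 and 0.0014), and 0.78 and 0.74 after scaling, still called. Slc37a3, a relative of Slc37a4, was at 8.0 to 8.55 TPM in FED, 8.44 to 9.20 in IF and 19.6, 11.8 and 13.5 TPM in FMD livers. It was higher in FMD than in FED (log2 fold change 0.76, adjusted p = 0.003) and than in IF (0.66, adjusted p = 0.038), and called in neither after scaling. Without FMD replicate 1 the value against FED was 0.56, under the fold limit. The other 3 sugar carriers (Slc17a5, Slc50a1 and Slc2a8) had log2 fold changes from -0.06 to 0.52 in IF and 0.22 to 0.32 in FMD and were not called.

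Slc16a1, which encodes MCT1, a carrier of lactate, pyruvate and ketone bodies at the plasma membrane, rose in both groups. It measured 15.5, 17.8 and 16.9 TPM in FED, 34.7, 30.5 and 39.4 TPM in IF and 33.9, 35.1 and 34.9 TPM in FMD livers. No restricted liver overlapped with a FED liver, and the FMD livers lay within the IF range. The log2 fold change was 1.01 ± 0.12 (SE) in IF and 1.01 ± 0.12 in FMD (adjusted p = 0.00043 and 0.00017), and FMD and IF differed by -0.002 (adjusted p = 0.99). Scaled values were 0.74 in IF, called, and 0.47 in FMD, not called.

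The Slc16a1 window is shown as that of another riser with an E-box, at chr3:104638414-104638713 of GRCm38.p6, plus strand. The E-box begins at position -200 and is in capitals. Antioxidant (TGACNNNGC) and metal (TGCGCNC) response element letters were also present on the minus strand, the former overlapping the E-box by 2 bases.
Slc16a1 promoter: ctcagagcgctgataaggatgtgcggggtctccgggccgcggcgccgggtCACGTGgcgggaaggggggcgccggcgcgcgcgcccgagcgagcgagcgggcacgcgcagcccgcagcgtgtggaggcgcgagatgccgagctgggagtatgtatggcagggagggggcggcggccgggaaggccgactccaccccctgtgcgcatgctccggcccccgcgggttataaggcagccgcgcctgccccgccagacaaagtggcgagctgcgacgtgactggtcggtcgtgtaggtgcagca

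Over all members with windows, 15 of 55 (27.3%) held a CACGTG E-box, against 12.9% of the 3816 tested genes with windows and 8.09% of all 27025 genes with windows. Of these 15 members, 3 were called higher in IF (Slc16a1, Slc27a1 and Slc29a1) and 9 in FMD. Beside this, 12 and 33 of the 69 members and 10.3% and 35.5% of all genes were called higher. The 69 members and all genes tested include genes without a window. Slc25a1, Slc33a1 and Slc39a11 were among the 15 as well. Metal response element letters were in 38.2% of members (TGCGCNC) and 21.8% (TGCACNC), against 32.5% and 14.9% of tested genes. The antioxidant response element was in 21.8% against 17.2% and the forkhead element (GTAAACA) in 1.82% against 3.2%. No member window held the cyclic AMP response element TGACGTCA (3.96% of tested genes) or the amino acid response element TGATGNAAT (0.577% of tested genes). Genes can have several windows, and a match of letters is not a bound site.

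Amino acid carriers were mostly higher in FMD. Of 9 members, 1 was called in IF and 7 in FMD, all higher (11.1% and 77.8%, against 11.9% and 37.1% of all genes). Their median log2 fold changes were 0.16 and 0.85, against 0.24 and 0.48 over all genes. After scaling Slc7a2 alone was called, higher in each of the 2 comparisons, against 3.71% and 5.47% of all genes called higher. Slc7a2, which encodes the cationic amino acid transporter CAT2 for arginine, lysine and ornithine, had the highest mean TPM of the plasma membrane carriers listed. It measured 92.6, 57.1 and 67.6 TPM in FED, 202, 186 and 130 TPM in IF and 212, 279 and 136 TPM in FMD livers. Both restricted groups were above FED and overlapped with each other. The log2 fold changes were 1.25 ± 0.27 (SE) in IF and 1.48 ± 0.27 in FMD (adjusted p = 0.0095 and 0.0015), and 0.97 and 0.93 after scaling.

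Slc38a2 encodes SNAT2, a sodium-coupled importer of alanine, glutamine and other small neutral amino acids. It measured 33.95, 35.8 and 34.6 TPM in FED, 36.8, 36.1 and 37.7 TPM in IF and 69.6, 50.5 and 78.1 TPM in FMD livers. The IF livers lay just above the FED livers and the FMD livers well above both. The log2 fold change was 0.08 in IF (adjusted p = 0.7), 0.88 ± 0.15 (SE) in FMD vs FED (adjusted p = 0.001) and 0.80 ± 0.15 in FMD vs IF (adjusted p = 0.019). After scaling the FMD values were 0.34 and 0.53 and not called.

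Slc3a2, the heavy chain that brings several amino acid exchangers to the cell surface, was at 17.2 to 18.2 TPM in FED, 22.7 to 28.5 in IF and 84.3, 27.6 and 37 TPM in FMD livers. FMD replicate 1 was far above the other FMD livers. FMD vs FED was called (log2 fold change 1.27, adjusted p = 0.0056), and remained so at 0.82 without this library, but not after scaling. Slc16a10, a carrier of aromatic amino acids, rose to 33.2 to 53.7 TPM in FMD from 20.2 to 23.4 TPM in FED (log2 fold change 0.85, adjusted p = 0.0029). The glycine carrier Slc6a9 was 12.4 to 12.8 TPM in FED and 33.1, 15.3 and 34.2 TPM in FMD livers (log2 fold change 0.98, adjusted p = 0.0087). The lysosomal Slc38a7 and its relative Slc38a10 completed the 7.

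Slc1a4, a neutral amino acid exchanger, was 2.06, 1.60 and 1.77 TPM in FED, 1.22, 1.17 and 1.30 TPM in IF and 3.31, 0.48 and 0.83 TPM in FMD livers. FMD replicate 1 was the highest of all livers and the other FMD livers the lowest. FMD vs FED was -0.31 with all libraries (adjusted p = 0.39) and -0.77 without FMD replicate 1 (adjusted p = 0.00112), when it was called. Slc7a5, the LAT1 light chain partner of Slc3a2, was low at 0.46 to 2.75 TPM in all livers and not called.

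Metal carriers held the only member called lower in IF. Slc39a4 encodes ZIP4, a zinc importer known best from the intestine. It measured 43.8, 33.9 and 44.4 TPM in FED, 21.9, 16.5 and 15.2 TPM in IF and 40.7, 40.6 and 49.1 TPM in FMD livers. Every IF liver was below every FED and FMD liver, and FED and FMD overlapped. The log2 fold change was -1.15 ± 0.16 (SE) in IF vs FED (adjusted p = 0.0011), 0.10 in FMD vs FED (adjusted p = 0.59) and 1.25 ± 0.16 in FMD vs IF (adjusted p = 0.0046). Scaled values were -1.42 and 0.98 for the comparisons with IF, both called, and -0.45 for FMD vs FED, not called. Both calls were kept in all 9 fits that left out 1 library.

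Slc30a1, which encodes the zinc exporter ZnT1, was 8.64, 9.31 and 10.3 TPM in FED, 15.6, 17.2 and 12.9 TPM in IF and 8.70, 9.82 and 16.04 TPM in FMD livers. The IF livers lay above the FED livers, and FMD replicate 4 lay within the IF range while the other FMD livers lay within the FED range. IF vs FED was just called (log2 fold change 0.63, adjusted p = 0.041), and this was lost after scaling (0.38) and without any 1 of 5 FED or IF libraries (adjusted p up to 0.153). Against FED, FMD was 0.22 (adjusted p = 0.33). Slc40a1, the iron exporter ferroportin, was 29.9, 50.8 and 50.2 TPM in FED, 57.5, 63.5 and 67.0 TPM in IF and 46.8, 33.4 and 76.8 TPM in FMD livers. IF lay above FED without passing the test (log2 fold change 0.55, adjusted p = 0.17).

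Slc39a6, which encodes the zinc importer ZIP6, was 0.48 to 0.59 TPM in FED, 0.62 to 0.73 in IF and 2.74, 1.26 and 1.58 TPM in FMD livers. It is 1 of 3 members, with Slc7a5 and Slc29a3, that reached the mean of 1 TPM through FMD alone, so its log2 differences of 0.87 from FED and 0.74 from IF are given as a description. Without these 3 members, 32 of 66 were called in FMD vs FED and 8 in FMD vs IF. The Golgi zinc carrier Slc39a9 was called higher in FMD (log2 fold change 0.71, adjusted p = 0.0033). Its value was 0.56, under the fold limit, without FMD replicate 1 and 0.18, not called, after scaling. Slc39a11, chosen after its values were seen, was 15.6 to 17.9 TPM in FED, 10.9 to 14.97 in IF and 11.1 to 18.5 TPM in FMD livers. It was called lower with scaled values only, at -0.67 in IF and -0.77 in FMD. Of the 13 metal carriers in all, 2 were called in IF (1 higher, 1 lower) and 3 in FMD (all higher), or 15.4% and 23.1% against 11.9% and 37.1% of all genes, with median log2 fold changes of 0.15 and 0.54. After scaling the calls were 2 lower in IF and 1 lower in FMD, with medians of -0.07 and 0.03. Of all genes, 3.43% and 5.72% were then called lower.

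**Figure D4:**
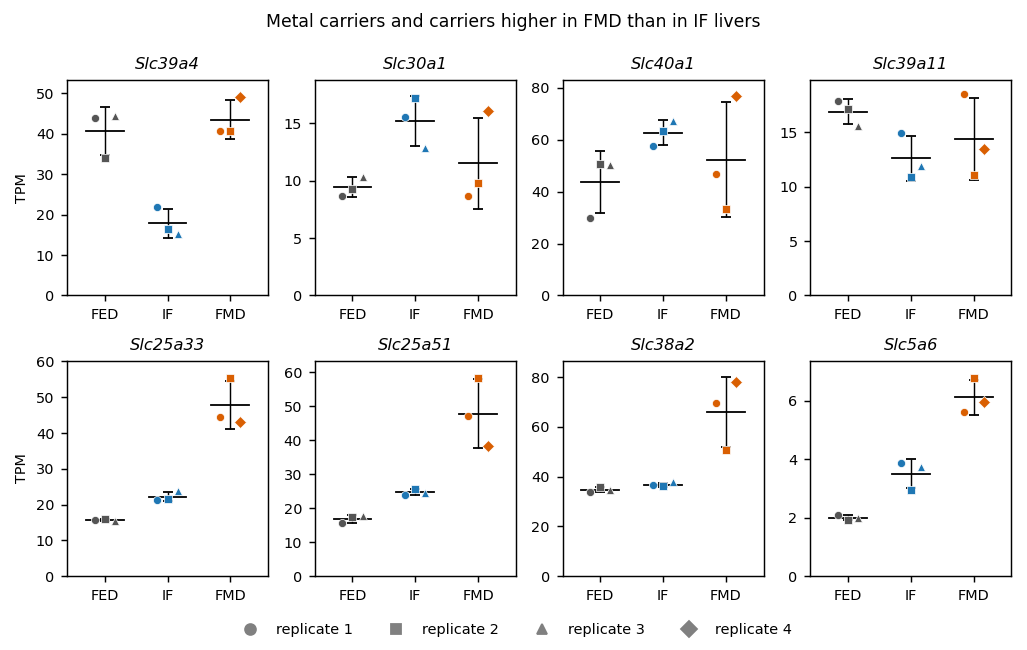
TPM (y axes, from 0) of 4 metal carriers (upper row) and of 4 carriers called higher in FMD than in IF (lower row) in each FED, IF and FMD liver (x axes). Points are libraries, with a symbol per replicate number, and bars are the mean ± SD of 3 mice. Slc39a4 is low in the 3 IF livers alone, and the 3 FMD livers are the highest in each lower panel. The lower panels were chosen by their calls, and 33.6% of all genes tested lay higher in FMD than in IF without overlap.

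Of 5 vitamin carriers, 2 were called in IF and 3 in FMD, all higher, against 11.9% and 37.1% of all genes. After scaling 1 was called in IF and 2 in FMD, again higher, against 3.71% and 5.47% of all genes called higher. The reduced folate carrier Slc19a1 was 3.65, 2.24 and 2.23 TPM in FED, 7.15, 6.17 and 5.18 TPM in IF and 16.7, 9.44 and 10.9 TPM in FMD livers, with no overlap between groups. Its log2 fold change was 0.96 ± 0.21 (SE) in IF (adjusted p = 0.011), 1.83 ± 0.21 in FMD (adjusted p = 0.00017) and 0.87 ± 0.21 in FMD vs IF (adjusted p = 0.039). The first 2 were called after scaling (0.75 and 1.36) and the third was not (0.61). The IF call was narrowly lost without IF replicate 1 (adjusted p = 0.0507).

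Slc5a6, the sodium-coupled carrier of biotin and pantothenate, was 2.11, 1.92 and 1.99 TPM in FED, 3.86, 2.94 and 3.72 TPM in IF and 5.61, 6.78 and 5.95 TPM in FMD livers. Again the 3 groups were separate. It gave 0.58 in IF (adjusted p = 0.0093, just under the fold limit), 1.24 ± 0.12 (SE) in FMD vs FED (adjusted p = 6.8e-05) and 0.66 ± 0.12 in FMD vs IF (adjusted p = 0.02). Only FMD vs FED was called after scaling (0.81). The riboflavin carrier Slc52a2 ranged over 1.16 to 1.35 TPM in FED, 2.29 to 2.72 in IF and 2.72 to 3.37 TPM in FMD livers. It was called in IF (0.61, adjusted p = 0.0052) and FMD (0.85, adjusted p = 0.00039), not after scaling, and the IF value was 0.58 without FED replicate 1 and 0.56 without IF replicate 1, under the fold limit. Slc19a2, the thiamine carrier, was 43.5 to 61.7 TPM in FED, 50.9 to 53.3 in IF and 52.6 to 71.4 TPM in FMD livers and was not called, and nor was Slc49a4.

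Nucleotide sugar carriers supply the Golgi and endoplasmic reticulum with sugars for glycosylation. They were grouped here with carriers of nucleosides and vesicle cargo, so not every member of the group carries nucleotide sugars. Of the 14 members of this group, 1 was called in IF and 7 in FMD, all higher. These were 7.14% and 50%, against 11.9% and 37.1% of all genes. With scaled values there was no higher call and 2 lower calls in each comparison. Of all genes, 3.43% in IF and 5.72% in FMD were then called lower. Slc29a1, the nucleoside carrier ENT1 of the plasma membrane, was at 110, 72.8 and 84.7 TPM in FED, 145, 138 and 138 TPM in IF and 122.7, 190 and 130 TPM in FMD livers. Both restricted groups lay above FED (log2 fold changes 0.67 and 0.71, adjusted p = 0.025 and 0.0076). The IF call was lost in 5 of 9 fits with 1 library left out (adjusted p up to 0.104), the FMD call without FED replicate 2 or FMD replicate 2, where the value was at lowest 0.52, and both after scaling.

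Within the Slc35 family 6 of 11 members were called higher in FMD (54.5%, against 37.1% of all genes). In IF none of the 11 was called, and their log2 fold changes ran from -0.55 to 0.46. Of these, 9 were above 0, beside 3785 of the 4665 genes tested. Their median was 0.20, against 0.24 over all genes. Slc35f5 was at 19.97 to 21.9 TPM in FED and 35.0 to 53.9 TPM in FMD livers (log2 fold change 0.99, adjusted p = 0.00068). Slc35e3 was at 6.93 to 7.86 TPM in FED and 11.6 to 12.9 TPM in FMD livers (0.68, adjusted p = 0.00075). Neither was called after scaling. Slc33a1, the acetyl-CoA carrier of the endoplasmic reticulum, was 35.2 to 36.5 TPM in FED, 22.1 to 28.2 in IF and 25.1 to 40.4 TPM in FMD livers. The IF livers lay below the FED livers, at a log2 fold change of -0.49 that did not pass the test (adjusted p = 0.051). Scaled values were -0.76 in IF and -0.68 in FMD, both called. The only other members called lower with scaled values, named after their values were seen, were Slc35b1 in IF (-0.83) and Slc35d2 in FMD (-0.75).

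Of the 4 carriers of inorganic ions, only the phosphate carrier Slc20a2 was called, in FMD (log2 fold change 0.81, adjusted p = 0.017). It was 24.6 to 29.1 TPM in FED and 75.8, 46.4 and 32.0 TPM in FMD livers, and the call was lost without FED replicate 2 or FMD replicate 1 (0.49 without the latter) and after scaling. The orphan Slc10a3 of the bile acid carrier family was 1.50 to 2.76 TPM in FED, 2.84 to 3.23 in IF and 9.99, 4.66 and 3.68 TPM in FMD livers. It was called in FMD (1.14, adjusted p = 0.0051) and after scaling (0.71), but not when scaled values were taken without FMD replicate 1 (0.46, adjusted p = 0.0741).

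Of the calls with the deposited values, 8 of 13 in IF, 23 of 33 in FMD and 2 of 9 in FMD vs IF were made in all 9 fits with 1 library left out. The 2 in the last comparison were Slc39a4 and Slc25a33. There, Slc25a51, Slc38a2 and Slc5a6 lost the call without any 1 of the IF libraries, Slc22a5 also without FED replicate 3, and Slc19a1, Slc39a6 and Slc37a3 without any 1 FED or IF library or FMD replicate 1 (adjusted p up to 0.153). Members spread more within FMD than within the other groups, with a median coefficient of variation of 24.2% against 8.89% in FED and 8.79% in IF. Over all genes tested it was 19.6%, 8.39% and 8.55% in the same order. Groups did not overlap for 39 members higher and 5 lower in IF, against 53.8% and 6.77% of all genes, and for 46 higher and 1 lower in FMD, against 68% and 2.62%. For FMD vs IF these were 25 and 2 members, against 33.6% and 3.04%. After scaling, 16 members lay higher and 16 lower without overlap in IF, beside 1077 and 1060 of the 4665 genes tested. In FMD they were 19 and 9 members, beside 853 and 849 genes. For FMD vs IF they were 16 and 4 members, beside 587 and 643 genes.

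Just inside the minimum of 1 TPM were Slc29a3 (mean 1.003 TPM) and Slc39a6 (1.02 TPM), and just outside were Slc29a2 (0.69 TPM) and Slc26a2 (0.45 TPM). The nucleoside carrier Slc29a2 was 0.21, 0.16 and 0.58 TPM in FED, 0.39, 0.53 and 0.64 TPM in IF and 1.29, 1.27 and 1.15 TPM in FMD livers. The FMD livers were separate from the rest. Slc7a11, the cystine importer xCT, was 0.32 TPM in FMD replicate 1 and at most 0.01 TPM elsewhere. Slco4a1 was the only Slco symbol listed and did not exceed 0.19 TPM.

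Transporters outside the solute carrier names are given for reference. Of 9 ABC transporters, 1 was called lower in IF, and 3 were higher and 1 lower in FMD. The lower one was Abca2 in both (log2 fold changes -0.81 and -0.82, adjusted p = 0.00411 and 0.00144). Of 10 P-type pumps, 1 was higher and 1 lower in IF and 6 were higher and 1 lower in FMD. Of all genes, 11.9% were called in IF (10.3% higher, 1.59% lower) and 37.1% in FMD (35.5% higher, 1.59% lower). After scaling, 1 ABC transporter and 1 pump were called in IF, and 1 ABC transporter and 2 pumps in FMD, all lower. Of all genes, 3.43% in IF and 5.72% in FMD were then called lower. The lipid flippase Atp11a fell in both (-1.47 and -1.25, adjusted p = 0.00038 and 0.0003), while the calcium pump Atp2a2 rose in FMD (1.01, or 0.46 and not called after scaling). None of these genes, of the 7 Mfsd genes, of the 2 other mitochondrial carriers or Aqp1 was called in FMD vs IF.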

How the data were processed

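From the livers of 3 FED, 3 IF and 3 FMD mice the authors prepared oligo-dT enriched, strand-specific RNA libraries and sequenced them on DNBSEQ. The deposited values are TPM, with 2 decimals and 1 column per library; the submitters' processing notes name the build mm39 and DESeq2, whose results were not used here, and the aligner is not given in the sources used here. TPM keeps no depth, so counting error cannot be given, and the table covers part of each library.

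Values were analysed as log2(TPM + 1), with 1 fit of all 9 libraries in limma 3.58.1 under R 4.3.3 (trend, Benjamini-Hochberg over the 4665 genes averaging 1 TPM or more). Fold changes on this scale understate changes of low genes. Replicates were separate mice. Replicate numbers were not treated as pairing the mice. Correlations of same-numbered deviations between groups ran from 0.003 to 0.177, and those of differently numbered ones from -0.202 to 0.211. These values do not settle whether the numbers pair mice.

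Members, roles, markers and motifs were chosen with earlier results of these data known. Genes named were the 8 largest called rises and falls per comparison, known liver carriers, the 5 highest Slc25 and plasma membrane carriers and the smallest adjusted p per role; further members were named after their values were seen. Figures were made with python 3.11.15 and matplotlib 3.10.9. Promoters came from RefSeq on GRCm38.p6.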

Additional observations from a re-analysis of the deposited data

Results flagged for a closer look

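The effects of the 2 regimens against the same FED livers were compared directly, FMD with IF, in limma with 3 mice per group. They differed for 9 members (13%), all towards higher FMD values, against 5.14% of all genes. Most calls over all genes went the same way, with 4.67% higher and 0.472% lower in FMD. The log2 differences (FMD minus IF) were 1.25 for Slc39a4, the zinc importer that was lower in IF, 1.06 for the pyrimidine nucleotide carrier Slc25a33 and 0.91 for the NAD carrier Slc25a51, and these 3 were also called with scaled values. They were 0.87 for the folate carrier Slc19a1, 0.80 for the amino acid carrier Slc38a2, 0.80 for the carnitine carrier Slc22a5, 0.74 for the zinc importer Slc39a6 (which passed the 1 TPM minimum through FMD alone), 0.66 for the biotin and pantothenate carrier Slc5a6 and 0.66 for Slc37a3, none of which was called with scaled values. Only Slc39a4 and Slc25a33 were called in all 9 fits with 1 library left out. Slc25a51 lost its call without any 1 IF library (adjusted limma p up to 0.071). Groups of 3 mice were too small for a search for outlying libraries gene by gene.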

How the results depend on the processing

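Counts of called members (13 in IF vs FED, 33 in FMD vs FED, 9 in FMD vs IF) stayed within 1.5 times under a pseudocount of 0.1, no filter, a minimum of 5 TPM, no trend and no fold limit. Scaled values gave 15 in FMD vs FED and 3 in FMD vs IF, and scaling without FMD replicate 1, added after seeing the data, gave 17 and 3. One fit per pair of groups gave 2 in FMD vs IF. With a replicate block the counts were 13, 38 and 19, although the numbers were not shown to pair mice and FMD replicate 4 has no partner. Leaving out 1 library gave 8 to 13, 25 to 39 and 2 to 22; the extremes were without IF replicate 1 (8), FMD replicate 1 (25), FMD replicate 4 (39 and 22) and each IF library (2), and FMD vs IF gave 5 without FED replicate 3 and 15 without FMD replicate 2. The causes were not tested. Values changed sign with scaling (Slc38a2 -0.19 in IF, and in FMD vs FED Slc39a4 -0.45, Slc30a1 -0.28 and Slc25a16 -0.032, which was 0.51 with an adjusted p of 0.0029 before it, and Slc27a1 -0.11 in FMD vs IF), with scaling without FMD replicate 1 (Slc38a2 -0.19, Slc39a4 -0.28, Slc30a1 -0.012) and with the block (Slc39a4 -0.008, Slc30a1 -0.046, Slc16a1 0.041). With 1 library left out, values straddled 0 for Slc39a4 (-0.025 to 0.164), Slc30a1 (-0.022 to 0.384), Slc33a1 (-0.294 to 0.038) and Slc1a4 (-0.769, called without FMD replicate 1, to 0.002) in FMD vs FED and for Slc16a1 (-0.092 to 0.088) and Slc27a1 (-0.421 to 0.443) in FMD vs IF. Apart from that Slc1a4 value none of these was called. TPM gives no depth, so counting error of low genes is unknown.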
